A study of Mus musculus with 12 samples.

Results

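The translation initiation and elongation factors are the genes whose names begin with Eif1 to Eif6, Eef1, Eef2 or Pabpc, leaving out the methyltransferases named Eef1akmt and pseudogenes. This rule found 69 of the 17915 gene names in the deposited tables of cultured mouse dorsal root ganglion (DRG) neurons. Of these, 68 were in the tables of both compartments, out of 16617 genes, and 67 passed the filter on low counts. Eif4ebp3 was listed in the soma table alone, with 0 to 12 counts per library, and Pabpc6, with 4 to 12 counts per library, was under the filter. RNA was taken from het neurites, WT neurites, het soma and WT soma, with 3 libraries each and 12 in all. Per the labels, het is GAR+/- and WT is GAR+/+, and the background strain of both is C57B6. The series title names nucleolin, an RNA-binding protein, and GAR is read here as the part of it that is rich in glycine and arginine, a reading that the labels do not spell out. The ganglia of 1 adult mouse were dissociated for each culture and the cells grew for 3 days on inserts with pores of 1 µm, through which neurites pass while the soma stay above. The labels give no sort of the cells and no drug to remove dividing cells, and the growth medium held serum.

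Initiation factors bring the small ribosomal subunit and the initiator tRNA to the cap of an mRNA and to its start codon, and elongation factors then carry tRNAs to the ribosome and move it along. The main switches are the exchange of GTP on eIF2, which eIF2B catalyses and eIF2 kinases block, and the assembly of the cap-binding complex eIF4F, which eIF4E-binding proteins block. Neurons also translate mRNAs in their axons, far from the cell body, and many mRNAs of the translation machinery have been found there.

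Library totals lay between 14965973 and 32434916 counts, and levels are given as CPM, counts scaled to the library size after TMM adjustment. At these depths, 3 counts, the limit that a count of 0 allows, came to 0.0905 to 0.21 CPM, which covers counting error only. Nucleolin mRNA (Ncl) averaged 380 ± 46.9 CPM in het neurites and 400 ± 72.1 CPM in WT neurites, and 266 ± 21.1 in het soma and 231 ± 12.1 in WT soma (SD, n = 3 libraries each). It did not differ past the threshold between genotypes (edgeR adjusted p = 0.794 in neurites and 0.697 in soma), and a gene total says nothing about which part of the gene was altered. Of 8 neuronal markers (Tubb3, Rbfox3, Uchl1, Snap25, Elavl3, Nefm, Stmn2 and Prph) all were measured, and their summed level was 8100 to 9840 CPM in het neurites, 6110 to 8300 CPM in WT neurites, 9100 to 10500 CPM in het soma and 7840 to 9500 CPM in WT soma. Markers of other cells were present in all groups, also on the neurite side, and their values stand beside the results they move with.

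The factors together took 1.44% to 1.67% of the counts of each library. Eef2, the GTPase that moves the ribosome by one codon, made up 24% to 26% of that. The tables count reads per Ensembl transcript. Over all annotated transcripts, 99.4% of those that are the sole transcript of their gene were listed, against 51.5% of those with over 100 bases of their own and 9.02% of those with no base of their own. How reads shared between transcripts were handled is not given in the sources used here. All of the counts of Eif2s3y and 89.9% of those of Eif4a1, the main helicase of eIF4F, came from transcripts annotated as retained introns, as did 66.2% of the counts of the eIF4F scaffold Eif4g1, 65.2% for Eif4enif1, 64.9% for Eef1d, 56.9% for Eif4a2 and 50.4% for Eif2a. For these genes a difference is largely one between such transcripts, and their CPM is no measure of the mRNA. Levels were therefore compared between genes, per kilobase, only for the 12 members with at least 80% of their exonic bases in a single transcript. Among them, Eef1a2 was the highest at 548 CPM per kilobase over the 12 libraries (lowest 386, highest 683), followed by Eif5a2 at 99.3 (63.8 to 127), Eif1ax at 77.3 (67.4 to 89.4), Eif4e at 48.9 (40.4 to 57.4) and Eif2s1 at 41.7 (35 to 62.4). The ranges of Eif5a2 and Eif1ax overlapped, as did those of Eif4e and Eif2s1. The lowest was Eif3j1 at 8.73 CPM per kilobase (5.21 to 12.1). Eif3j1 and Eif3j2 are close copies of each other, and so are Eif2s3x and Eif2s3y, so reads may have been split between them.

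Neurites were first set against soma, as the mean of both genotypes, which asks which factor mRNAs make up more or less of the RNA on the neurite side. In this comparison 9 of the 67 tested factors were higher in neurites and 1 was lower (edgeR quasi-likelihood test, Benjamini-Hochberg adjusted p under 0.05 over 15990 genes). Over all genes tested 7.33% were higher and 4.87% were lower. On the log2 scale the factors had a median change of 0.09, against -0.003 over all genes, and 46 of 67 were above 0. The factors higher in neurites were Eif5b, Pabpc1, Eif3a, Eif1, Eif3b, Eif3h, Eif3g, Eif4g2 and Eif2ak2, and the factor lower was Eif5a2. All 6 neurite libraries lay above all 6 soma libraries for 9 factors, and below them for 1, where over all genes 2.76% lay above and 1.46% below. These 9 are not the 9 called higher: Eif3g, Eif4g2 and Eif2ak2 overlapped between compartments, while Eif3e and Eif4b were among the factors that did not overlap and were not called. With scaling to library totals 10 factors passed, 7 higher and 3 lower: Eif3g and Eif2ak2 no longer passed, and Eef1a2 and Eif2ak3 joined Eif5a2 on the lower side. That scaling moved the split over all genes too, to 931 higher and 1121 lower, against 1172 and 778 with TMM. The changes were small: no called factor differed by more than 1.51-fold. Because these are bulk samples, fewer cells of a type and less RNA per cell cannot be told apart.

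**Figure D1:**
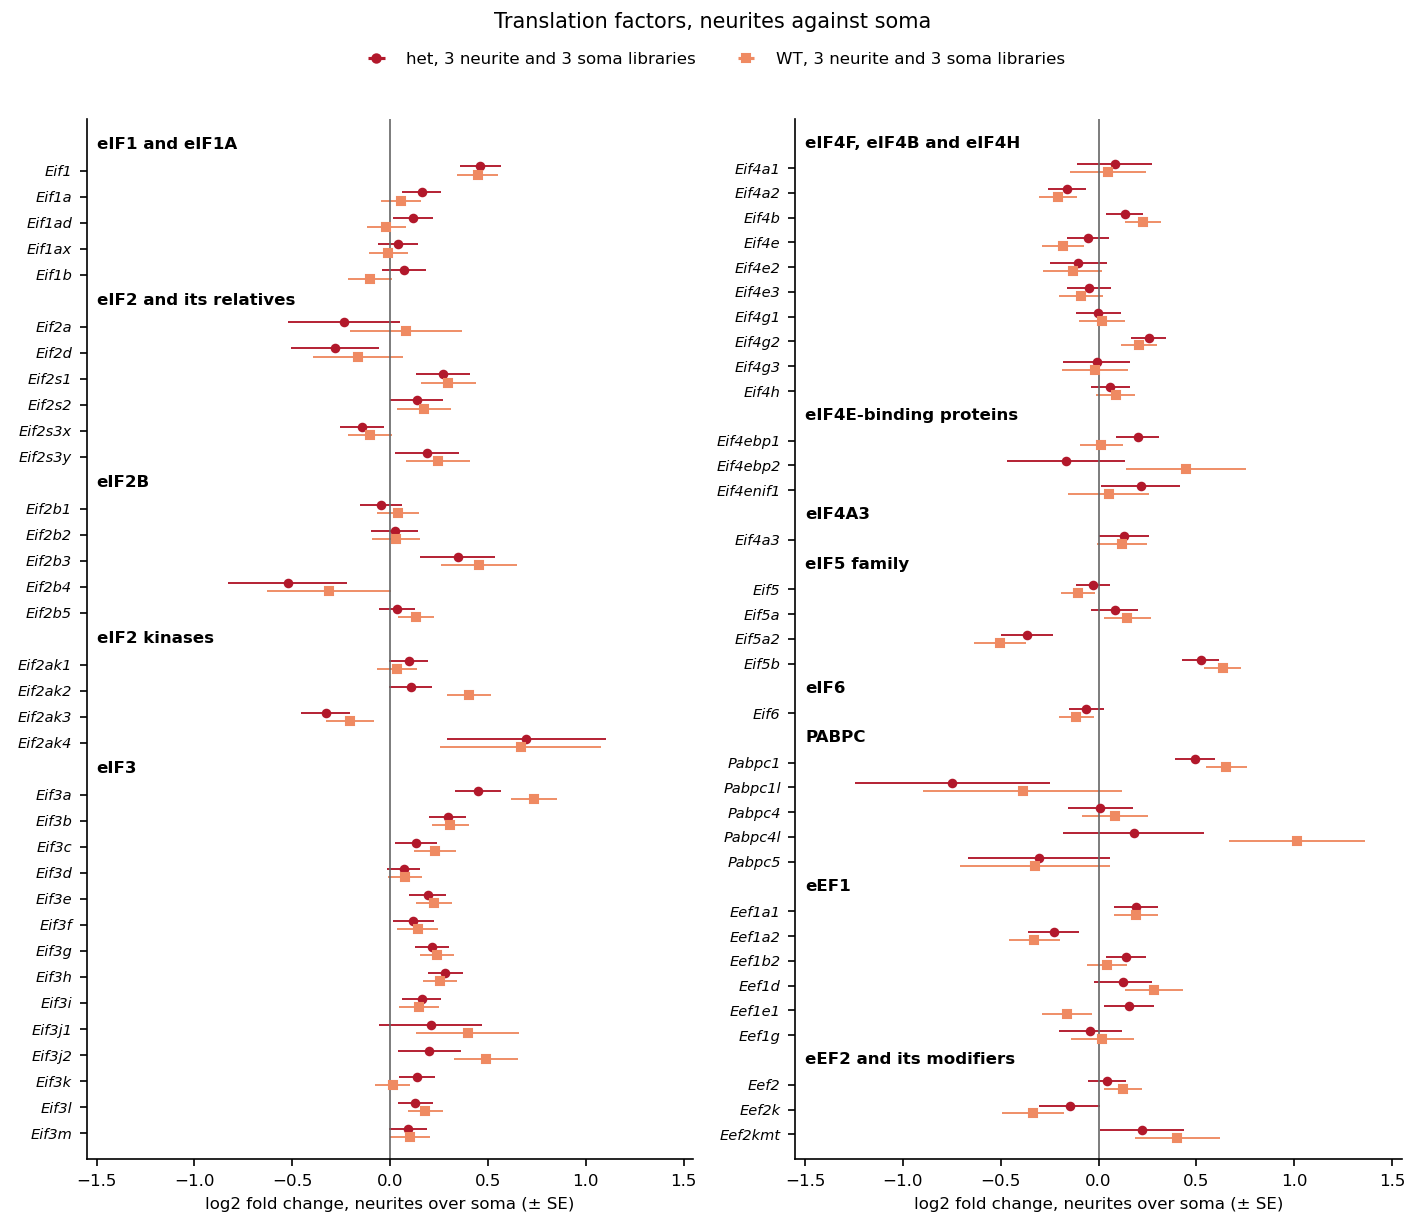
Log2 fold change of neurites over soma (± SE, from the fit over 12 libraries) for each of the 67 tested factors, in het (circles) and WT (squares), grouped by complex. The 14 eIF3 subunits lie right of 0 in both genotypes (with scaling to library totals, not drawn, Eif3k lay at -0.05 in WT), and Eif5a2 lies left of 0 in both.

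Markers of other cell types moved with the compartment. Of the 8 neuronal markers, Rbfox3, Uchl1 and Prph were lower in neurites and none was higher. Of 4 satellite glia markers, Fabp7 and Kcnj10 were higher in neurites, with a summed level of 570 to 643 CPM in het neurites, 529 to 730 CPM in WT neurites, 496 to 607 CPM in het soma and 464 to 628 CPM in WT soma. Of 5 Schwann cell markers, Prx and Sox10 were higher and Ngfr was lower, with sums of 1250 to 1480 CPM in het neurites, 1260 to 1490 CPM in WT neurites, 1620 to 1750 CPM in het soma and 1520 to 1790 CPM in WT soma. The 4 markers of dividing cells summed to 233 to 455 CPM in het neurites, 545 to 966 CPM in WT neurites, 170 to 253 CPM in het soma and 431 to 627 CPM in WT soma, and none passed the threshold between compartments. None of 5 fibroblast markers passed it (499 to 1170 CPM in het neurites, 758 to 2570 CPM in WT neurites, 447 to 743 CPM in het soma, 820 to 1630 CPM in WT soma). The macrophage markers Aif1, Csf1r and Ptprc and the endothelial marker Pecam1 were not among the genes tested, while Cd68 was lower in neurites. The part of these cells in the results on translation factors was not tested.

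The factors that find the start codon and join the subunits held the clearest difference. Eif5b, the GTPase that brings the large ribosomal subunit to the small one (chromosome 1, 37998010 to 38055579, plus strand, GRCm38), had 183, 178 and 157 CPM in het neurites, 191, 196 and 172 CPM in WT neurites, 116, 115 and 129 in het soma, and 114, 126 and 120 in WT soma. The lowest neurite library stood above the highest soma library. It was 1.49-fold higher in neurites (log2 0.58, SE 0.07, edgeR adjusted p = 0.00025). Eif1, which guards the choice of the start codon on the scanning ribosome (chromosome 11, 100319885 to 100322096, plus strand), had 84.0, 81.5 and 105 CPM in het neurites, 76.0, 74.2 and 77.6 CPM in WT neurites, 62.7, 63.6 and 70.3 in het soma, and 54.6, 53.4 and 59.1 in WT soma. The neurite and soma libraries did not overlap, and Eif1 was 1.37-fold higher in neurites (log2 0.46, SE 0.07, edgeR adjusted p = 0.00175). Its paralog Eif1b, of like sequence and less known function, stood at -0.02 on the log2 scale (adjusted p = 0.928), and the tRNA-positioning factors Eif1a and Eif1ax had 0.11 and 0.01 (adjusted p = 0.35 and 0.919). Eif5, which triggers GTP hydrolysis by eIF2, had -0.07 (adjusted p = 0.532).

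The 1 factor lower in neurites was of the eIF5A kind, whose modified lysine, hypusine, helps the ribosome past difficult peptide bonds. Eif5a2 (chromosome 3, 28781276 to 28798846, plus strand) had 408, 484 and 496 CPM in het neurites, 399, 445 and 321 CPM in WT neurites, 640, 632 and 515 in het soma, and 609, 525 and 518 in WT soma. Every neurite library was below every soma library, and it was 1.35-fold lower in neurites (log2 -0.43, SE 0.09, edgeR adjusted p = 0.00851). Its broadly expressed paralog Eif5a had 41.0, 43.4 and 51.6 CPM in het neurites, 51.4, 44.5 and 42.9 CPM in WT neurites, 46.3, 45.4 and 36.6 in het soma, and 44.0, 40.7 and 40.5 in WT soma, which overlapped (log2 0.12, SE 0.09, adjusted p = 0.413).

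The eIF3 complex, the largest initiation factor, which holds the small subunit open for the mRNA, was the group with the most called members. It was also the group with the most tested members. Among its 14 tested subunits, Eif3a, Eif3b, Eif3h and Eif3g were higher in neurites and none was lower. All 14 had a log2 fold change above 0, from 0.07 for Eif3d to 0.59 for Eif3a, with a median of 0.20 against -0.003 over all genes. Over all genes, 7928 of 15990 lay above 0 and 7.33% were called higher. The 14 also lay above 0 in het alone and in WT alone, except that with scaling to library totals Eif3k lay at -0.05 in WT. The summed level of the 14 subunits was 4148 to 4374 CPM in het neurites and 4144 to 4738 CPM in WT neurites, against 3576 to 3692 CPM in het soma and 3558 to 3684 CPM in WT soma, so the compartments did not overlap.

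Eif3a, the scaffold subunit (chromosome 19, 60761117 to 60790658, minus strand), had 917, 917 and 717 CPM in het neurites, 1096, 1230 and 964 CPM in WT neurites, 592, 627 and 647 in het soma, and 679, 658 and 640 in WT soma. All neurite libraries were above all soma libraries, and het neurites 3 came nearest to the soma. The gene was 1.51-fold higher in neurites (log2 0.59, SE 0.08, edgeR adjusted p = 0.00063). Eif3b, the other scaffold subunit of the core, had 453, 460 and 445 CPM in het neurites, 488, 434 and 409 CPM in WT neurites, 336, 377 and 396 in het soma, and 355, 360 and 360 in WT soma (log2 0.30, SE 0.07, adjusted p = 0.0102). Eif3h, a subunit of the outer ring of the complex, had 227, 218 and 244 CPM in het neurites, 238, 234 and 208 CPM in WT neurites, 187, 198 and 182 in het soma, and 183, 190 and 197 in WT soma (log2 0.27, SE 0.06, adjusted p = 0.0122). Neither overlapped between the compartments. Eif3g, which takes part in scanning, had 201, 199 and 206 CPM in het neurites, 201, 202 and 175 CPM in WT neurites, 172, 183 and 168 in het soma, and 166, 155 and 169 in WT soma. WT neurites 3 fell within the range of the soma libraries (log2 0.23, SE 0.06, adjusted p = 0.0273). Eif3e missed the threshold (log2 0.21, SE 0.07, adjusted p = 0.0511) although its neurite libraries, at 247 to 303 CPM, did not overlap with its soma libraries, at 218 to 238 CPM.

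Of the poly(A)-binding proteins, which hold the tail of the mRNA and touch the cap complex through eIF4G, Pabpc1 alone passed the threshold among 5 tested members. Pabpc1 (chromosome 15, 36595661 to 36609668, minus strand) had 205, 198 and 197 CPM in het neurites, 191, 249 and 198 CPM in WT neurites, 146, 135 and 145 in het soma, and 140, 127 and 139 in WT soma. The compartments did not overlap, and Pabpc1 was 1.49-fold higher in neurites (log2 0.57, SE 0.07, edgeR adjusted p = 0.000368). Pabpc4, the inducible paralog, had 7.43, 6.79 and 8.99 CPM in het neurites, 8.39, 9.75 and 7.70 CPM in WT neurites, 8.81, 7.18 and 7.01 in het soma, and 9.30, 7.32 and 7.66 in WT soma. These overlapped (log2 0.05, SE 0.12, adjusted p = 0.837). Pabpc1l, Pabpc4l and Pabpc5 were all below 6 CPM in every library and none passed.

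**Figure D2:**
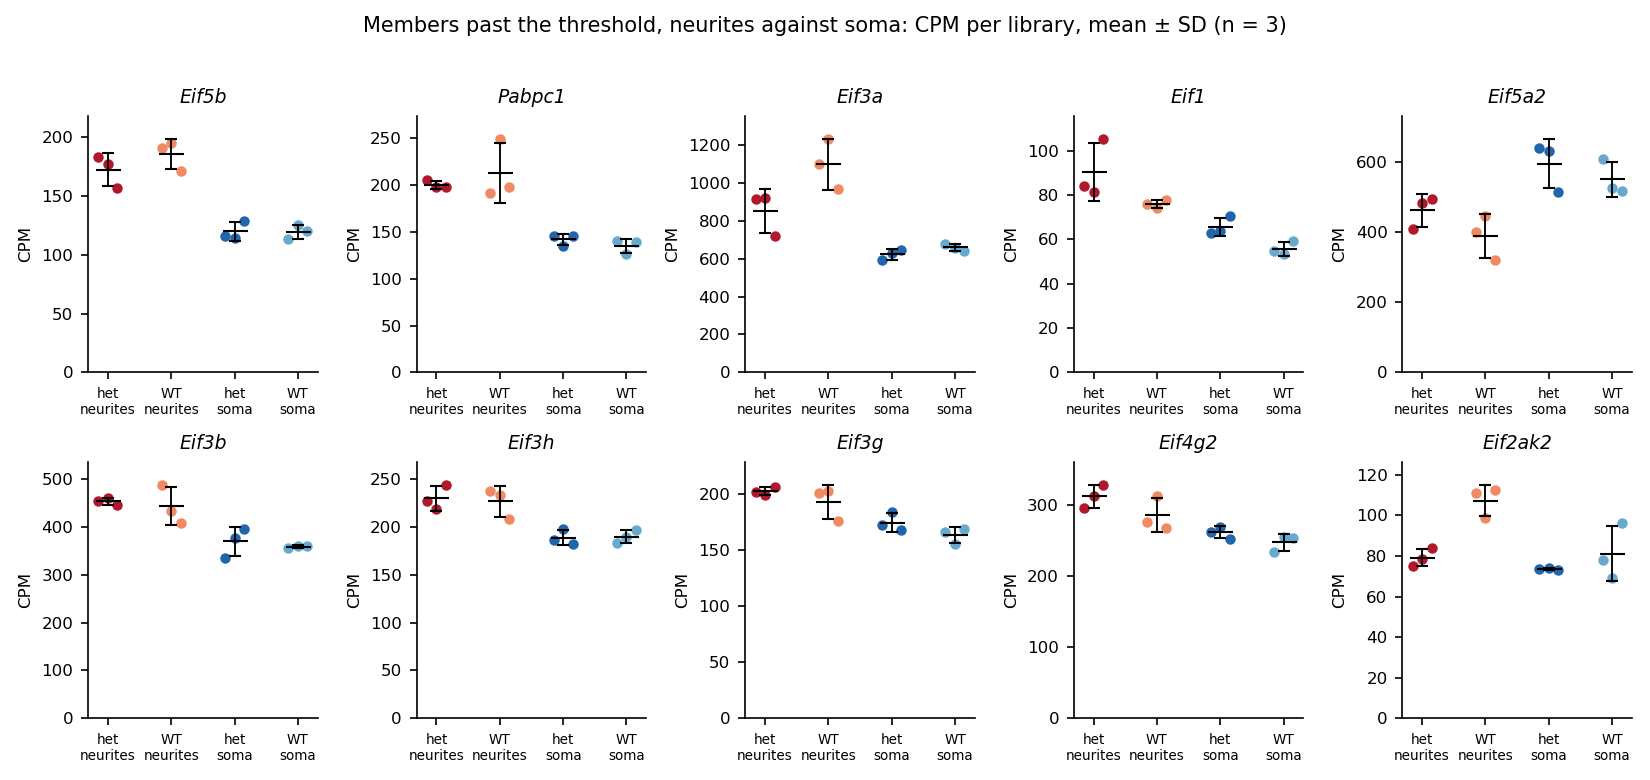
CPM (vertical axis, from 0) in each library of the 10 factors past the threshold between neurites and soma, ordered by adjusted p. Points are libraries, bars are the mean ± SD of 3, and 7 of the 10 factors show no overlap between the 6 neurite and the 6 soma libraries.

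Among the 10 tested members of eIF4F and its helpers, Eif4g2 was higher in neurites and none was lower. Eif4g2, an eIF4G relative that lacks the binding site for the cap-binding protein, had 296, 312 and 327 CPM in het neurites, 275, 313 and 268 CPM in WT neurites, 262, 269 and 252 in het soma, and 234, 255 and 253 in WT soma. WT neurites 3 fell just under the highest soma library (log2 0.23, SE 0.06, edgeR adjusted p = 0.0297). The cap-binding protein Eif4e had 282, 313 and 321 CPM in het neurites, 261, 273 and 243 CPM in WT neurites, 323, 345 and 282 in het soma, and 261, 324 and 297 in WT soma, which overlapped (log2 -0.12, SE 0.08, adjusted p = 0.342). Eif4g1, counted mostly over retained introns, had 26.9 to 36.6 CPM in neurites and 28.6 to 35.1 CPM in soma (log2 0.01, SE 0.08, adjusted p = 0.965). The helicase partner Eif4b stood at log2 0.18 (SE 0.07, adjusted p = 0.0891), with no overlap between compartments, and Eif4h had 0.07 (SE 0.07, adjusted p = 0.54). Of the eIF4E-binding proteins, which compete with eIF4G for eIF4E, Eif4ebp1 had 66.3, 62.9 and 83.6 CPM in het neurites, 67.7, 71.0 and 68.9 CPM in WT neurites, 64.9, 64.1 and 56.2 in het soma, and 71.9, 64.2 and 69.7 in WT soma. These overlapped (log2 0.11, SE 0.08, adjusted p = 0.408). Eif4ebp2, the main brain form, was counted at only 1.81 to 3.64 CPM in neurites and 1.78 to 3.76 CPM in soma (log2 0.14, SE 0.21, adjusted p = 0.719).

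The eIF2 arm gave 1 call. Eif2s1, the subunit of eIF2 that the kinases phosphorylate, had 220, 194 and 228 CPM in het neurites, 309, 197 and 214 CPM in WT neurites, 184, 173 and 175 in het soma, and 212, 178 and 196 in WT soma. WT neurites 1 stood above the rest and the compartments overlapped (log2 0.29, SE 0.10, edgeR adjusted p = 0.0711). None of the 6 members of eIF2 and its relatives and none of the 5 subunits of the exchange factor eIF2B passed the threshold. Of the 4 eIF2 kinases, Eif2ak2 (PKR), which double-stranded RNA activates and interferon induces, was higher in neurites (log2 0.25, SE 0.08, adjusted p = 0.0477). Eif2ak3 (PERK), the kinase of the endoplasmic reticulum, had -0.27 (SE 0.09, adjusted p = 0.0602). The heme-regulated kinase Eif2ak1 had 0.06 (adjusted p = 0.602), and Eif2ak4 (GCN2), which senses uncharged tRNA, had 0.68 with a large error (SE 0.29, adjusted p = 0.136) at 0.71 to 1.30 CPM on average per group.

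The elongation factors gave no call between compartments in the fit over all 12 libraries without a block. Unadjusted p-values under 0.05 were found for 25 of all 67 factors and for 4426 of all 15990 genes tested. Eef2 had 3727, 3968 and 3846 CPM in het neurites, 3872, 4179 and 3654 CPM in WT neurites, 3642, 3773 and 3788 in het soma, and 3495, 3663 and 3570 in WT soma (log2 0.08, SE 0.07, edgeR adjusted p = 0.466). Its kinase Eef2k, which stops it, stood at log2 -0.24 (SE 0.11, adjusted p = 0.171). Eef1a1, the widely expressed form of the factor that delivers tRNAs, had 864, 782 and 972 CPM in het neurites, 971, 841 and 869 CPM in WT neurites, 827, 725 and 738 in het soma, and 841, 704 and 805 in WT soma (log2 0.19, SE 0.08, adjusted p = 0.126). Eef1a2, the form of mature neurons and muscle, had 1042, 1257 and 1143 CPM in het neurites, 803, 1131 and 823 CPM in WT neurites, 1327, 1424 and 1286 in het soma, and 1116, 1232 and 1115 in WT soma (log2 -0.28, SE 0.09, adjusted p = 0.059). Both overlapped between the compartments. The result for Eef1a2 stood near the threshold, and it was called lower with DESeq2 (log2 -0.27, adjusted p = 0.0325), limma voom (-0.29, adjusted p = 0.0392), library totals (-0.31, adjusted p = 0.0249), the replicate number as a block (-0.29, adjusted p = 0.00645) and that block within genotype (-0.29, adjusted p = 0.012). Without het neurites 2 or WT neurites 2 it passed as well (adjusted p = 0.0455 and 0.00417). Eef1a1 passed only with the number as a block (0.19, adjusted p = 0.0447), and Eef2k only with the block within genotype (-0.24, adjusted p = 0.0464), among the settings in which no library was left out.

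Ratios of counts between paralogs were set side by side within libraries, where scaling cancels. The 4 pairs were chosen with their single-gene results known, so the ratios restate those results and were not tested. Of these genes only Eef1a2 and Eif5a2 are among the 12 members compared per kilobase above. The share of exonic bases in a single transcript was 30.7% for Eif5a, 40.9% for Eef1a1 and 23.1% for Pabpc4. The size of a ratio therefore does not say which paralog has more mRNA, and only its change between groups is described. The ratio of Eif5a2 to Eif5a was 9.60 to 11.1 in het neurites and 7.48 to 10.0 in WT neurites, against 13.8 to 14.1 in het soma and 12.8 to 13.8 in WT soma (log2 difference of neurites from soma -0.55). The ratio of Pabpc1 to Pabpc4 was 22 to 29.2 in het neurites and 22.8 to 25.7 in WT neurites, against 16.6 to 20.7 in het soma and 15.1 to 18.1 in WT soma (log2 difference 0.52). The ratio of Eif1b to Eif1 was 4.04 to 4.83 in het neurites and 3.70 to 4.77 in WT neurites, against 4.61 to 6.41 in het soma and 5.31 to 6.78 in WT soma (log2 difference -0.47). The ratio of Eef1a2 to Eef1a1 was 1.18 to 1.61 in het neurites and 0.827 to 1.35 in WT neurites, against 1.60 to 1.96 in het soma and 1.33 to 1.75 in WT soma (log2 difference -0.48). The first 2 ratios did not overlap between compartments and the other 2 did. Glial and neuronal markers differed between the compartments too, as given above.

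**Figure D3:**
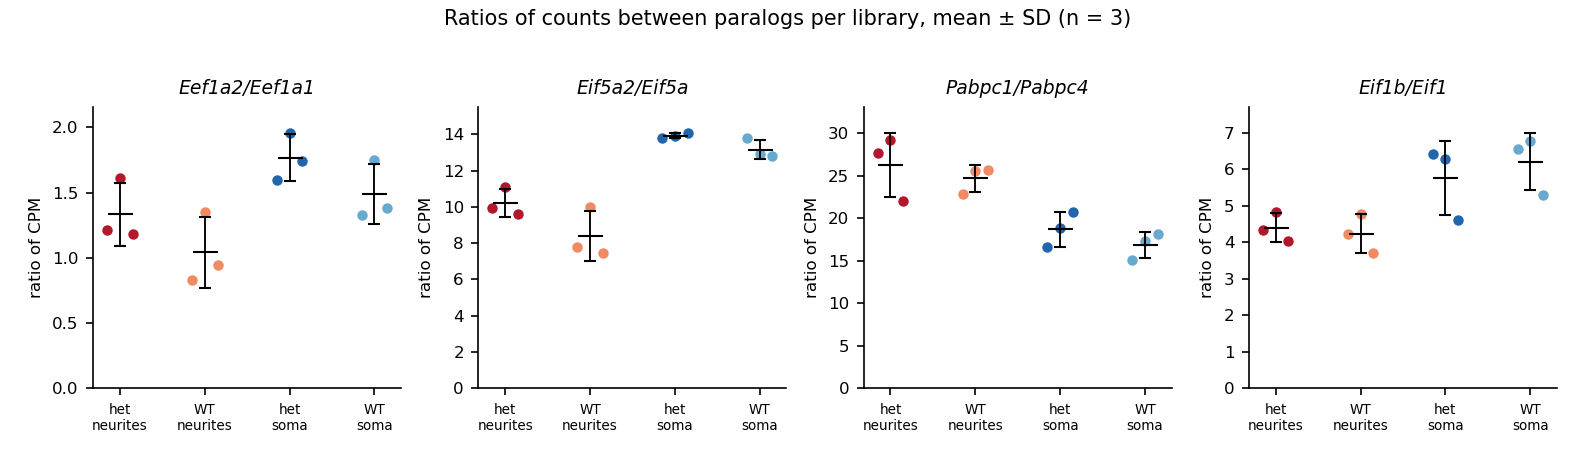
Ratio of CPM between paralogs (vertical axis, from 0) in each of the 12 libraries, with the mean ± SD of 3 per group. Eif5a2/Eif5a lies at 7.48 to 11.1 in neurites and at 12.8 to 14.1 in soma, while Pabpc1/Pabpc4 lies at 22 to 29.2 in neurites and at 15.1 to 20.7 in soma. The height of a ratio does not say which paralog has more mRNA.

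Many elongation factors and some eIF3 subunits have been described as TOP mRNAs, whose 5′ end begins with a C followed by pyrimidines and whose translation follows mTOR. The pair Eef1a1 and Eef1a2 is shown because the paralogs differ near the start that RefSeq annotates for them. From the RefSeq promoters (GRCm38.p6), 30 bases before to 20 bases after that start are printed. A run of at least 5 pyrimidines that begins with C and lies within 10 bases of the start is in capitals. Where these mRNAs begin was not measured here, so the run in capitals is not shown to be the 5′ end of the mRNA. The Eef1a1 window is at chr9:78481705-78481754 and the Eef1a2 window at chr2:181156996-181157045, both on the minus strand. In GENCODE the 5′ end of the Eef1a2 gene, at 181157014, lies inside its window. That of Eef1a1, at 78489151, lies outside its window, so the annotations differ on where Eef1a1 begins. The run printed for Eef1a1 may therefore lie away from the start of its mRNA.
Eef1a1: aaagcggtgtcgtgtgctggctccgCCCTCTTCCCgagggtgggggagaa
Eef1a2: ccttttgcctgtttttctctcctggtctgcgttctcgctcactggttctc
RefSeq promoters were matched by symbol to 53 members, which had 68 promoters between them. Such a run was held by 21 of the 68 (30.9%), which belong to 17 members, while 26.5% of all 32851 promoters held it. Of the members described as TOP mRNAs, 6 had a promoter in the table and 2 of these, Eef1a1 and Eif3f, held the run. A start that differs from the annotated one, by a few bases or by more, moves this count. A run held or missing is therefore not shown to be a TOP end or its absence. Of the 11 members described as TOP mRNAs, all tested, Pabpc1 and Eif3h were higher in neurites, none was lower, and 9 had a log2 fold change above 0 (median 0.18, against -0.003 over all genes).

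Each genotype was then taken alone. In WT, 4 factors were higher in neurites (Eif5b, Pabpc1, Eif3a and Eif1) and none was lower, while 2.41% of all genes were higher and 0.688% were lower (edgeR adjusted p under 0.05). With library totals, 3 factors were higher and 1 was lower in WT, since Eif1 no longer passed and Eif5a2 did. Over all genes that scaling gave 1.53% higher and 1.77% lower in WT. In het, Eif5b and Pabpc1 were higher and none was lower, while 0.544% of all genes were higher and 0.0938% were lower. The log2 fold change of Eif5b was 0.52 (SE 0.09, adjusted p = 0.0267) in het and 0.63 (SE 0.09, adjusted p = 0.00468) in WT. That of Pabpc1 was 0.49 (SE 0.10, adjusted p = 0.0468) in het and 0.65 (SE 0.10, adjusted p = 0.00523) in WT. Eif3a had 0.45 (SE 0.12, adjusted p = 0.0976) in het and 0.74 (SE 0.12, adjusted p = 0.00528) in WT, and Eif1 had 0.46 (SE 0.10, adjusted p = 0.0602) in het and 0.45 (SE 0.10, adjusted p = 0.0337) in WT. All 4 had no overlap between neurites and soma in either genotype. With 3 libraries on each side this is common. All neurite libraries lay above all soma libraries for 16 of 67 factors and 12.4% of all genes in WT. In het they did so for 19 factors and 11.7% of all genes. The difference between the genotypes was tested as an interaction, and 0 factors and 0% of all genes passed (edgeR, with 0 of 67 factors and 202 of 15990 genes at an unadjusted p under 0.05, and 0 with DESeq2 as well). The interaction estimate was -0.28 (SE 0.17) for Eif3a and -0.30 (SE 0.16) for Eif2ak2 on the log2 scale, both with an adjusted p of 1.

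The WT libraries of neurites and soma with the same number deviated together, so a fit with the number as a block within genotype was made. It gave 8 factors higher and 1 lower in WT, while 5.85% of all genes were higher and 3.46% were lower. Beside Eif5b, Pabpc1, Eif3a and Eif1, the blocked fit called Eif2ak2 (log2 0.41, SE 0.10, adjusted p = 0.0153), Eif3j1 (0.41, SE 0.10, adjusted p = 0.0198), Eif3j2 (0.47, SE 0.11, adjusted p = 0.00984) and Pabpc4l (1.00, SE 0.24, adjusted p = 0.0128) as higher, and Eif5a2 as lower (-0.51, SE 0.12, adjusted p = 0.0125).

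Leaving out 1 library ended several calls near the threshold, while their fold changes moved little. When each of the 12 libraries was left out in turn, Eif5b, Pabpc1, Eif3a, Eif1, Eif3b, Eif3h and Eif5a2 kept an adjusted p under 0.05 over both genotypes in all 12 cases (edgeR adjusted p at most 0.0363). Eif3g lost the call in 5 cases, with its highest adjusted p of 0.0821 without WT soma 2 and log2 fold changes of 0.21 to 0.26. Eif4g2 lost it in 7 cases, up to 0.0731 without WT soma 1, with log2 fold changes of 0.20 to 0.25. Eif2ak2 lost it in 10 cases, up to 0.128 without WT soma 2, with log2 fold changes of 0.20 to 0.32. In WT, Eif1 lost its call in 8 cases, up to 0.16 without WT soma 2, at log2 0.42 to 0.49. In het, Eif5b lost it in 5 and Pabpc1 in 10, up to 0.215 and 0.251 without het soma 2, at log2 0.48 to 0.59 for Eif5b and 0.46 to 0.52 for Pabpc1. The cases for Pabpc1 in het include WT libraries, which share in the estimate of the spread but not in that difference. Without WT neurites 2, 7 factors were called in WT, with Eif2ak2 added on the higher side and Eef1a2 and Eif5a2 on the lower side, while the share of all genes called in WT went up as well, to 3.87% higher and 2.75% lower. In het, no factor was called without any 1 of het neurites 1, het soma 1, het soma 2, het soma 3 or WT soma 3. Of all genes, these fits called 0%, 0%, 0%, 0.00613% and 0.227% in the same order, so few genes of any kind passed in them. Without any 1 of het neurites 3, WT neurites 3, WT soma 1 or WT soma 2, 1 factor was called, beside 0.147%, 0.303%, 0.465% and 0.389% of all genes.

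The comparison of het with WT asks whether the factors depend on the GAR genotype. In neurites, 1 of 67 factors passed the threshold, Eif2ak2, which was lower in het (edgeR adjusted p under 0.05), and no factor was higher. Over all genes 2.78% were lower and 0.494% were higher. Eif2ak2 (chromosome 17, 78852564 to 78882573, minus strand) had 75.2, 78.4 and 83.8 CPM in het neurites, 111, 98.5 and 112 CPM in WT neurites, 73.7, 74.2 and 72.9 in het soma, and 78.2, 69.2 and 96.2 in WT soma. The 3 WT neurite libraries were above the 9 others, of which WT soma 3 came nearest. It was 1.36-fold lower in het neurites than in WT neurites (log2 -0.44, SE 0.11, adjusted p = 0.0459). In soma its log2 fold change was -0.14 (SE 0.11, adjusted p = 0.765). The call was lost in 9 of the 12 cases with 1 library left out, with an adjusted p of up to 0.162 without het neurites 2, and was kept only without WT neurites 2, WT soma 2 or WT soma 3 (0.0174, 0.0398 and 0.0332), with log2 fold changes of -0.50 to -0.40 over the 12 cases. It was also lost with scaling to library totals (adjusted p = 0.0964) and in a fit of the neurite libraries alone (adjusted p = 0.162). Over all genes, 1.83% passed with library totals and 0% in the fit of the neurite libraries alone. No gene passed without het neurites 2, het neurites 3 or WT neurites 3 either, so a lost call in those fits is not particular to Eif2ak2. In the authors' deposited table of transcripts, the main Eif2ak2 transcript had a log2 fold change of -0.43 in het neurites with a false discovery rate of 0.0749.

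Eif2ak2 and Eif3a, the members with the smallest p on the lower side, also hold a match to the interferon-response motif GAAANNGAAA, searched on both strands of the RefSeq promoters from 250 bases before to 50 after the start. It was found in 3.44% of all promoters and in 4 of the members' 68 promoters (5.88%), 1 in each of 4 members, the others being Eif2s1 and Eif2s3x. Neither of these others passed the threshold between het and WT neurites, and Eif3a did not pass it either. Eif2s3x lay on the higher side (log2 0.11), and Eif2s1 on the lower side (-0.17 with protein-coding transcripts alone). The windows are printed with the match in capitals, for Eif2ak2 at chr17:78882535-78882564 and for Eif3a, where the match is on the opposite strand as TTTCNNTTTC, at chr19:60790885-60790914 (GRCm38.p6, both genes on the minus strand).
Eif2ak2: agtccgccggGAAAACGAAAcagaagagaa
Eif3a: agaccgcaaaTTTCCCTTTCccactctgtg
The match is a description of these letters and no evidence that a factor bound there.

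Eif3a had 717 to 917 CPM in het neurites and 964 to 1230 CPM in WT neurites, with no overlap (log2 -0.37, SE 0.12, edgeR adjusted p = 0.0932). All het neurite libraries lay below all WT neurite libraries for 2 of 67 factors and for 10.8% of all genes. Pabpc4l, a poly(A)-binding protein of low level, had 3.50, 1.38 and 1.36 CPM in het neurites, 5.67, 3.23 and 3.89 CPM in WT neurites, 2.41, 1.59 and 1.33 in het soma, and 2.38, 1.90 and 2.0 in WT soma (log2 -1.05, SE 0.35, adjusted p = 0.107). On the higher side, the smallest p-values belonged to Eif4e2, a cap-binding relative that represses translation (log2 0.42, SE 0.15, adjusted p = 0.133), Eif1b (0.30, SE 0.11, adjusted p = 0.152) and Eef1a2 (0.32, SE 0.13, adjusted p = 0.173). Unadjusted p-values were under 0.05 for 11 of the 67 factors and for 3343 of all 15990 genes tested. The factors had a median of -0.006 on the log2 scale, against -0.013 over all genes, and 33 of 67 were above 0.

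**Figure D4:**
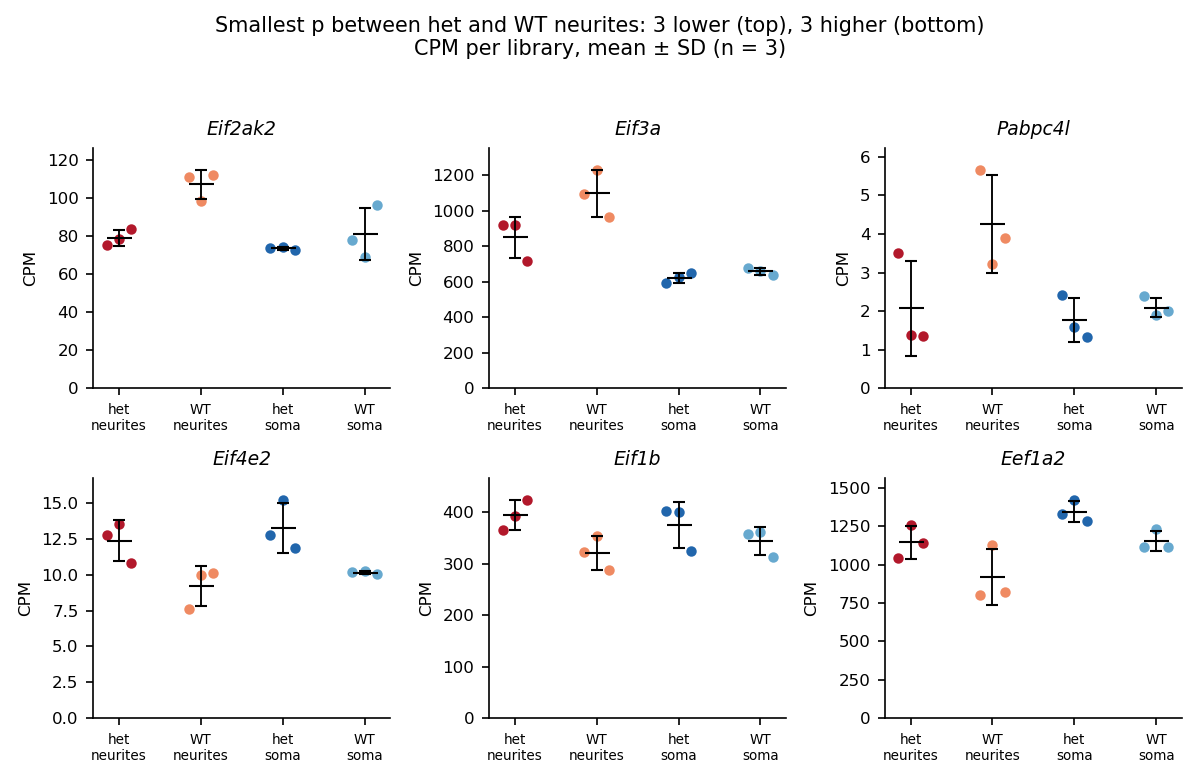
CPM (vertical axis, from 0) in each library of the 3 factors lower (top) and the 3 factors higher (bottom) in het neurites with the smallest p, with the mean ± SD of 3. The Eif2ak2 libraries of het neurites lie at 75.2 to 83.8 and those of WT neurites at 98.5 to 112, and of the 6 genes shown it was the one past the threshold.

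Markers of cell types also moved with the genotype. Of the 8 neuronal markers Uchl1 was higher in het neurites (edgeR adjusted p = 0.0403) and all 8 had a log2 fold change above 0. Of the 4 satellite glia markers Fabp7 and Apoe were lower in het neurites, while Kcnj10 had -0.66 and Glul 0.12 on the log2 scale without passing. Of the 5 Schwann cell markers Prx and Sox10 were lower, while Mbp had -0.07, Ngfr -0.001 and S100b 0.26 without passing. Of the 4 markers of dividing cells Mki67, Top2a and Cdk1 were lower. In soma none of these markers passed between het and WT, yet the values of several were about as large, at log2 -0.99 for Fabp7, -1.35 for Top2a and -1.13 for Mki67, and the interaction had an adjusted p of 1 for each of the 3. Mki67 averaged 176 CPM in het neurites, 438 CPM in WT neurites, 129 CPM in het soma and 283 CPM in WT soma. Fibroblast markers summed to 499 to 1170 CPM in het neurites and 758 to 2570 CPM in WT neurites. The part of these markers' cells in the lower Eif2ak2 level was not tested.

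In soma, 0 of 67 factors and 0% of all genes passed between het and WT (edgeR), with 2 factors and 1464 genes at an unadjusted p under 0.05. DESeq2 called 0 factors and 315 genes. The soma libraries of het and WT with the same number deviated together, and the fit with the number as a block called 0 factors and 3.25% of all genes. The smallest p-values on the higher side belonged to Eif4e2 (log2 0.39, SE 0.15, adjusted p = 0.38), Eif1 (0.23, SE 0.10, adjusted p = 0.507) and Eif4e3 (0.20, SE 0.11, adjusted p = 0.633). On the lower side they belonged to Eif4ebp1 (-0.15, SE 0.11, adjusted p = 0.743), Eif2ak2 (-0.14, as above) and Eif4a3, a helicase of the exon junction complex (-0.16, SE 0.13, adjusted p = 0.771). Eif4e2 had 12.7, 15.2 and 11.9 CPM in het soma, against 10.2, 10.2 and 10.1 CPM in WT soma, with no overlap. In neurites it had 12.7, 13.5 and 10.8 CPM in het and 7.62, 9.95 and 10.1 CPM in WT, also with no overlap. All het libraries lay above all WT libraries for 6 of 67 factors and 8.86% of all genes in soma. In neurites they did so for 6 factors and 7.53% of all genes, so such a separation is not particular to Eif4e2.

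The authors tested single transcripts between genotypes. In the authors' deposited table, 2 of 199 factor transcripts in neurites and 3 of 205 in soma had a false discovery rate under 0.05, against 3.02% of all 32838 transcripts in neurites and 4.24% of all 35313 in soma. In neurites, a coding transcript of Eif4a2 (ENSMUST00000115341) was higher in het at a log2 fold change of 2.03 in the authors' deposited table, with a false discovery rate of 0.000388. Its counts were 35, 57 and 48 in het neurites, 8, 7 and 12 in WT neurites, 59, 51 and 59 in het soma, and 46, 57 and 50 in WT soma, so the WT neurite libraries alone were low. All transcripts of Eif4a2 together, an eIF4A helicase common in neurons, did not pass the threshold (log2 0.04 in het neurites against WT neurites, edgeR adjusted p = 0.877), a sum in which retained introns hold most of the counts as given above. Pabpc4l was lower in het neurites at -1.11 in the authors' deposited table, with a false discovery rate of 0.0144. In soma, a coding transcript of Eif4e2 (ENSMUST00000113230) was higher in het at 0.90 in the authors' deposited table, with a false discovery rate of 0.000661. Its counts were 113, 95 and 83 in het soma and 55, 43 and 47 in WT soma. The other 2 soma transcripts, of Eif4a1 and Eef1b2, were lower in het, are annotated as processed transcripts and had at most 57 counts in any soma library.

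Other genes of translation were set beside the factors. Of 47 genes in 4 lists, 43 were tested, and 7 were higher in neurites than in soma and none was lower (edgeR). Over all genes 7.33% were higher and 4.87% were lower. The median of the 43 on the log2 scale was 0.02, against -0.003 over all genes. Of termination and recycling genes, 2 of 9 were higher, Gspt1 (log2 0.45, adjusted p = 0.00237) and Etf1 (0.23, adjusted p = 0.0402), the release factors eRF3a and eRF1. Of the helpers of initiation, 3 of 12 were higher, the helicases Dhx9 (0.47, adjusted p = 0.000916) and Dhx29 (0.23, adjusted p = 0.0274), and Abcf1 (0.32, adjusted p = 0.009). Of the regulators of eIF2 and eIF4F, 2 of 15 were higher, Serbp1, which binds idle ribosomes (0.48, adjusted p = 0.00194), and Cyfip1, a partner of eIF4E (0.45, adjusted p = 0.0256). None of 7 tRNA delivery and elongation helpers passed. Between het and WT, none of the 43 passed in neurites, where 3.27% of all genes did, or in soma, where 0% did.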

How the data were processed

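RNA of cultured mouse DRG neurons, depleted of ribosomal RNA per the labels' protocols, was sequenced from 12 libraries in 4 groups of 3. The authors deposited counts per Ensembl transcript, per the file headers, in 1 table per compartment, with low transcripts removed in each separately. Log2 fold changes of het over WT came with them, deposited by the authors from their own comparison, per the file headers. Per the file headers, the authors' tables also hold p-values and FDR values (false discovery rates) for each transcript. CASAVA 1.8.2, edgeR and the mm10 (GRCm38) build are named in the submitters' processing notes, and the sources used here give no aligner or counting method. A further 24 per-sample columns were not used. Transcripts with no gene name held 0.574% to 0.694% of the counts.

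For each gene name, the counts of those of the 31420 named transcripts found in both tables were added up. filterByExpr left 15990 genes, TMM set the library sizes, and a robust quasi-likelihood fit over all 12 libraries was made with edgeR 4.0.16 under R 4.3.3. The steps were tested on simulated counts. The threshold was a Benjamini-Hochberg adjusted p of 0.05 over all genes tested, and the SE is the size of the log2 fold change divided by the square root of the F statistic. Alternatives used limma 3.58.1 (voom), DESeq2 1.42.0, other scalings and filters, and each library left out. The coefficient of variation between replicates was 0.171 in het neurites, 0.214 in WT neurites, 0.12 in het soma and 0.143 in WT soma. All tests were 2-sided, and p-values cover the spread between cultures of 1 mouse each.

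Positions come from GENCODE M21. Sequences come from RefSeq (GRCm38.p6). Pseudogenes described as copies of these factors held a further 1.17% to 1.89% of the factors' counts and were left out. Libraries of the same number deviated from their group means together in WT neurites and soma (correlations over genes of 0.579, 0.594 and 0.405) and in het and WT soma (0.422, 0.559 and 0.215), which gave the pairing for the blocked fits. This pairing comes from the data, not from the labels. Factors with values per library, or their range, are those past the threshold in any comparison, the 3 of smallest p in each direction between genotypes, and 14 set by name. The factors, gene lists and tests were chosen with earlier results of these data known, and an alternative with protein-coding transcripts alone was added after seeing these tables. Further glial markers are not reported here.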

Additional observations from a re-analysis of the deposited data

How the results depend on the processing

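With DESeq2, 17 factors were called between neurites and soma over both genotypes (14 higher, 3 lower), 7 in WT, 6 in het and 2 between genotypes in neurites, where it called 18.8%, 9.77%, 4.83% and 8.68% of all genes, against 12.2%, 3.1%, 0.638% and 3.27% with edgeR. With the replicate number as a block, 19 were called over both genotypes, 11 in WT, 4 in het and 4 between genotypes in neurites (19.9%, 9.44%, 4.18% and 10.6% of all genes), and with the number as a block within genotype, 18, 9 and 4 over both genotypes, in WT and in het (19.2%, 9.31% and 4.2% of all genes). In het neurites and soma, and in het and WT neurites, same-numbered libraries did not all deviate together (correlations of 0.205, 0.518 and -0.241, and of 0.401, 0.487 and -0.123), so there the block is not shown to pair them. Fitting only the libraries compared gave 1 call in WT (0.26% of all genes) and 0 between genotypes in neurites (0% of all genes). RLE scaling and library totals also gave 0 calls between genotypes in neurites (2.96% and 1.83% of all genes). Protein-coding transcripts alone, chosen after seeing the data, gave 13, 5, 2 and 1 (13.6%, 3.84%, 0.603% and 4.16% of all genes). Leaving out 1 library gave 7 to 13 calls over both genotypes, 3 to 7 in WT, 0 to 3 in het and 0 to 2 between genotypes in neurites. The shares of all genes in those cases were 6.76% to 16.8%, 0.575% to 6.62%, 0% to 1.18% and 0% to 10.8%. No setting called a factor between genotypes in soma or in the interaction. Of single factors between compartments, Eif4g1 turned to -0.022 with library totals, and leaving out 1 library moved Eif4g1 between -0.038 and 0.058, Pabpc4 between -0.015 and 0.105 and Eif4ebp2 between -0.000 and 0.258, none of them past the threshold. The cause of these differences was not tested. Depth limits Pabpc1l, Pabpc5, Eif2ak4 and Eif2b4, at about 1 CPM, and sums over transcripts cannot recover reads that no transcript was given.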
